A study of Arabidopsis thaliana with 4 samples.

Results

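The psbEFLJ operon of the Arabidopsis thaliana chloroplast was examined in an RNA immunoprecipitation sequencing (RIP-seq) experiment with an antibody against the HA tag. Its 4 genes, psbE, psbF, psbL and psbJ, lie on the minus strand at 63538 to 64322 of the chloroplast genome (TAIR10.1 assembly, 1-based), and are 4 of the 130 gene intervals annotated there. The region described here adds the 3 spacers and 300 nt on each side and spans 1385 of 154478 positions. The RNA came from stroma extracts, the dissolved contents of chloroplasts, of plants aged 2 weeks. There were 2 libraries from a transgenic dPPRrbcL line and 2 from wild-type Col-0 (WT), which went through the same immunoprecipitation. All plants grew under 12 h light at 21°C and 12 h dark at 18°C. The labels do not say how the transgene is driven, nor whether the replicates came from separate plants, so the p-values below measure the spread between these libraries, which may be technical. dPPRrbcL is a pentatricopeptide repeat (PPR) protein whose named target is the mRNA of rbcL, the large subunit of Rubisco. The study set out to test that association and to look for off-targets.

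The operon was chosen by the dPPRrbcL over WT coverage of its genes, with earlier results of these libraries known in which psbE and psbL stood among the highest. The differences of its genes between dPPRrbcL and WT are therefore given as a description, with no test. All 4 libraries are immunoprecipitates and no input library was analysed here, so a higher recovery of an RNA and a higher amount of it in the extract cannot be told apart.

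Photosystem II, the enzyme that splits water in photosynthesis, contains cytochrome b559, a heme protein built from the products of psbE (the alpha subunit) and psbF (the beta subunit). psbL and psbJ encode small membrane subunits of the same photosystem that are needed for its normal assembly and electron transfer. In land plants the genes are transcribed together as a polycistronic RNA, in the order psbE, psbF, psbL, psbJ. PPR proteins are RNA-binding proteins of plant organelles that recognise single-stranded RNA and can shield it from nucleases.

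The first 3 genes are packed closely. psbE (ArthCp039, 64071 to 64322, 252 nt) is separated from psbF (ArthCp038, 63942 to 64061, 120 nt) by 9 nt, and psbF from psbL (ArthCp037, 63804 to 63920, 117 nt) by 21 nt. A spacer of 143 nt (63661 to 63803) precedes psbJ (ArthCp036, 63538 to 63660, 123 nt). Each gene is a single exon without introns. The junctions are shown because fragments that cross them count for both neighbours, so the genes are not independent measurements. In the junctions, capitals mark the stop codon of the upstream gene and the start codon of the downstream gene; all sequences are the sense strand, read from the TAIR10.1 chloroplast sequence.
psbE-psbF junction (64050 to 64082): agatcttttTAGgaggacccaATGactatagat
psbF-psbL junction (63909 to 63953): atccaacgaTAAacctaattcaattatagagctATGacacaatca

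The next stretches carry some, not all, of the extremes of the coverage and of the dPPRrbcL over WT ratio described below. They are the first 100 nt of psbE, with the start codon in capitals, the whole of psbL, with start and stop codons in capitals, and 30 nt around the highest position of the region in dPPRrbcL, which is in capitals.
psbE first 100 nt (64223 to 64322): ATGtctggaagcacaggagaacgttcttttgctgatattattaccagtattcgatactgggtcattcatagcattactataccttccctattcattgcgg
psbL coding sequence (63804 to 63920): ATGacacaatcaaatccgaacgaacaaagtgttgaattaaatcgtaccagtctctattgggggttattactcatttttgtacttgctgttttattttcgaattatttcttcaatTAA
psbL-psbJ spacer around 63702 (63687 to 63716): gactgtttatgtttCtagcatgaccactcg

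Coverage of all 4 genes was far higher in dPPRrbcL than in WT. The values are mean read coverage, in reads per nucleotide, which does not depend on gene length. In the order replicate 1, replicate 2, psbE had 3992 and 3555 in dPPRrbcL, against 64.2 and 70.1 in WT. psbF had 2135 and 2037 in dPPRrbcL, against 71.6 and 98.5 in WT. In psbE and psbF alike, the lower dPPRrbcL library lay well above the higher WT library, and psbF was the gene on which the WT replicates differed most. psbL had 2122 and 1936 reads per nucleotide in dPPRrbcL, against 33.7 and 36.2 in WT. psbJ had 1867 and 1621 in dPPRrbcL, against 43.9 and 42.8 in WT. psbL was thus the lowest of the 4 genes in both WT libraries, while psbJ was the lowest in both dPPRrbcL libraries.

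**Figure D1:**
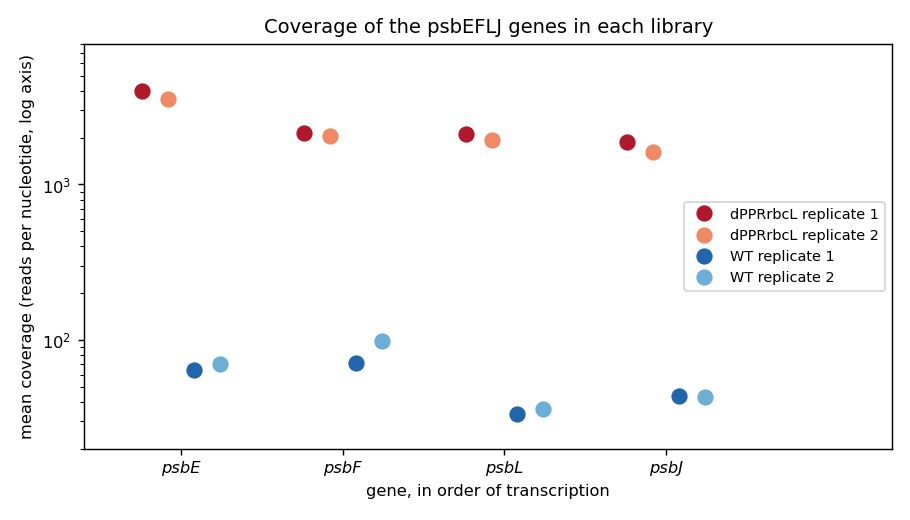
Mean coverage of each gene (reads per nucleotide, log axis) with 1 point per library, dPPRrbcL on the left and WT on the right of each gene. The dPPRrbcL points lie between 1621 and 3992 and the WT points between 33.7 and 98.5, with no overlap in any gene.

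The order of the genes differed between the groups. In dPPRrbcL, psbE was the highest in both libraries, psbF and psbL were close to each other, and psbJ came last. The ratio of psbF to psbL within a library was 1.01 and 1.05 in dPPRrbcL, against 2.12 and 2.72 in WT. In WT, psbF was the highest gene in both libraries and psbE came next. Among the 86 protein-coding gene intervals, psbE held rank 8 and 7 by coverage in dPPRrbcL replicates 1 and 2, against 22 and 20 in WT replicates 1 and 2. psbL held ranks 15 and 16 in dPPRrbcL, against 35 in both WT libraries. psbF differed less in rank, with rank 14 in both dPPRrbcL libraries and ranks 21 and 18 in WT.

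Relative to the mean coverage of the whole chloroplast genome in the same library, psbE stood at 30.3% ± 3.50 in dPPRrbcL and 0.587% ± 0.126 in WT (SD, n = 2 each). psbF stood at 16.8% ± 1.12 in dPPRrbcL and 0.752% ± 0.280 in WT, by the same measure. psbL stood at 16.3% ± 1.61 in dPPRrbcL and 0.305% ± 0.062 in WT. psbJ stood at 14.0% ± 1.87 in dPPRrbcL and 0.376% ± 0.051 in WT. As ratios of dPPRrbcL over WT without a pseudocount, these are 53.9-fold for psbL, 52.1-fold for psbE, 37.3-fold for psbJ and 23.1-fold for psbF. The log2 ratios were 5.75 ± 0.33 for psbL, 5.70 ± 0.35 for psbE, 5.22 ± 0.27 for psbJ and 4.53 ± 0.56 for psbF (SD from both groups). The order of psbL and psbE lies within this spread.

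These ratios are set against libraries whose composition differed. rRNA genes took 90.9% ± 0.79 of the summed coverage in dPPRrbcL and 98.6% ± 0.25 in WT (SD, n = 2 each), and the genome-wide mean depth was 12167 and 12762 in dPPRrbcL, against 12917 and 10373 in WT. The median of the 109 genes that averaged at least 10 reads per nucleotide over the 4 libraries and had coverage in each of them had a log2 ratio of 3.86 under scaling to the library total. Without a pseudocount, the distance of a gene from the median gene is the same under every scaling. psbL exceeded the median gene by 1.89 on the log2 scale, psbE by 1.84, psbJ by 1.36 and psbF by 0.66. They ranked 5, 7, 11 and 27 of 109, and rbcL ranked 16, with an excess of 1.04.

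**Figure D2:**
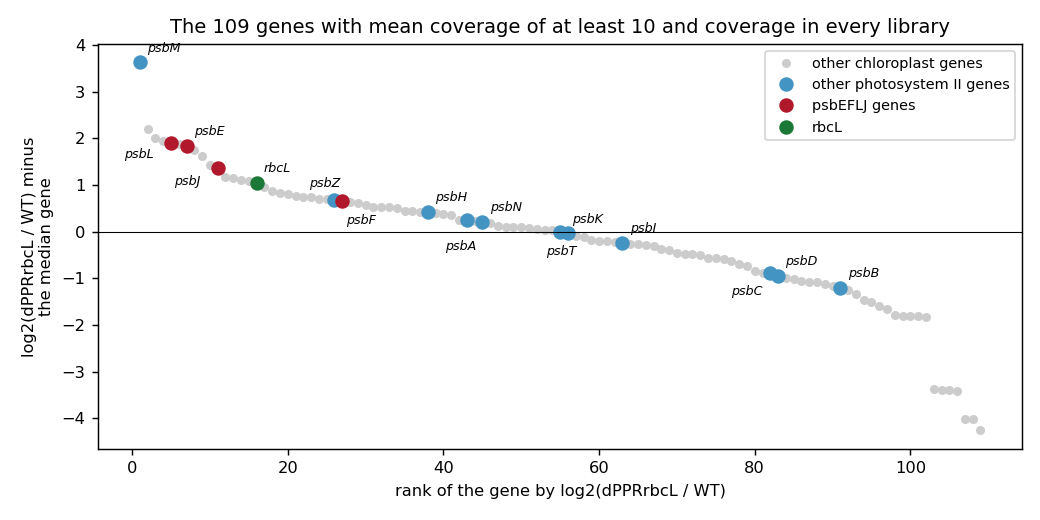
Log2 ratio of dPPRrbcL over WT minus the median gene (vertical axis) against the rank of the gene (horizontal axis), for the 109 genes with a mean of at least 10 reads per nucleotide and coverage in every library. The psbEFLJ genes (red) lie between 0.66 and 1.89, rbcL (green) at 1.04, and the other photosystem II genes (blue) between -1.21 and 3.62.

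The whole operon interval had a mean of 3030 and 2741 reads per position in dPPRrbcL, against 58.8 and 67.3 in WT. It took 1.49% and 1.45% of the coverage that remains after rRNA and tRNA genes are left out (the remaining coverage) in dPPRrbcL, against 0.233% and 0.255% in WT. Within protein-coding genes alone, the 4 genes took 1.47% ± 0.019 of the coverage in dPPRrbcL and 0.419% ± 0.017 in WT (SD, n = 2 each). The groups did not overlap in any of these measures. The operon was picked for this contrast, so nothing is read from that. How often other genes were free of overlap on the remaining or the protein-coding base was not tested. On the log2 scale, with a pseudocount of 0.1% of the library mean, the operon difference was 5.17 ± 0.34 when scaled to the library total. It was 2.51 ± 0.09 with the remaining coverage as the base and 1.54 ± 0.06 by the median ratio over genes.

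The same measure was fitted over all genes with limma. Scaled to the library total, 109 of 112 genes passed as higher (97.3%; Benjamini-Hochberg adjusted p under 0.05) and 0 as lower, also 0 at an unadjusted p under 0.05. All 4 operon genes were among the higher ones, which at this background says nothing about them. Their groups did not overlap, as in 97.3% of genes. Scaled to the remaining coverage, 69.6% of genes passed as higher and 15.2% as lower, and by the median ratio 29.5% as higher and 32.1% as lower. The 4 genes passed as higher under both, and since the operon was picked for this contrast, nothing is read from that count. Their median log2 change was 5.12, 2.54 and 1.59 under the library total, the remaining coverage and the median ratio, beside 2.97, 0.84 and 0.07 for all genes tested. The pseudocount lowers the change of thinly covered genes most. Without it, scaled to the library total, the operon stood at 5.41 and the median of 109 genes at 3.86.

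The shape of the coverage within a library needs no scaling between libraries. In dPPRrbcL the profile had a pair of broad maxima, one over the 5′ flank and psbE and one over the psbL-psbJ spacer, with psbF and psbL lying between them. The highest position of the region was 63702, in the psbL-psbJ spacer, in both dPPRrbcL libraries, with 4686 and 4262 reads. In WT it was 64074 near the end of psbE in replicate 1, with 95 reads, and 63965 in psbF in replicate 2, with 133 reads. Within psbF alone, the local maximum lay at 63966 and 63965 in dPPRrbcL and at 63965 in both WT libraries, so that position was shared while its relative height was not.

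**Figure D3:**
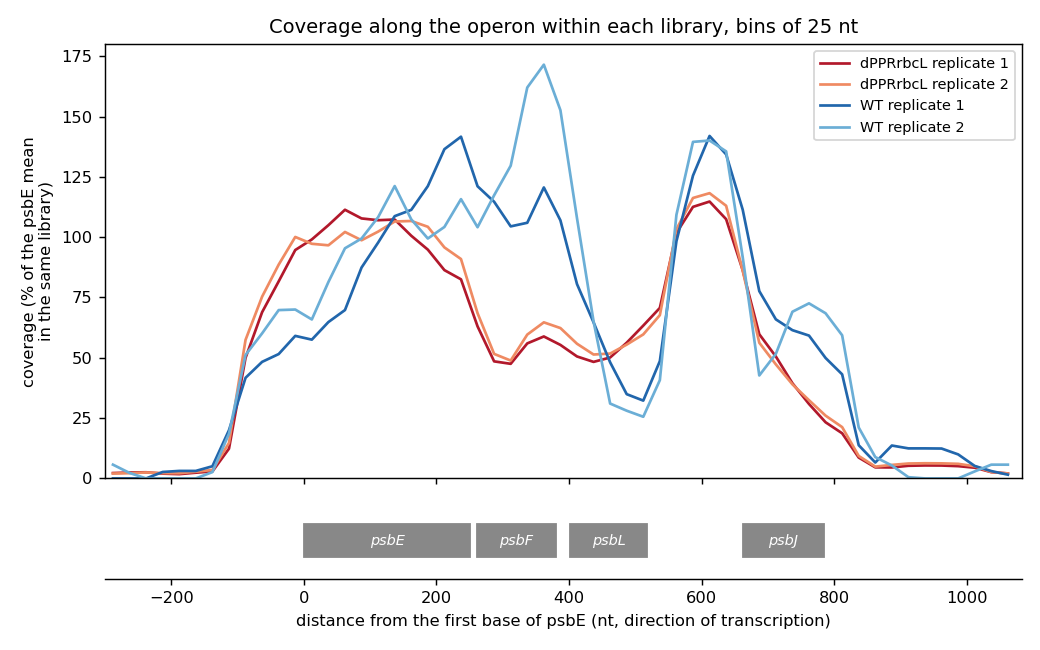
Coverage in bins of 25 nt, as a percentage of the psbE mean in the same library, against the distance from the first base of psbE, with the gene map beneath. Around 350 to 374 nt, in psbF, dPPRrbcL is at 58.8% and 64.7% and WT at 121% and 172%. The psbL-psbJ spacer stands high in every library outside its stretch next to psbL.

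psbF was covered 0.535 and 0.573 times as deeply as psbE in dPPRrbcL, against 1.11 and 1.41 times in WT, a log2 difference of -1.18 ± 0.25. psbJ was covered 0.468 and 0.456 times as deeply as psbE in dPPRrbcL, against 0.684 and 0.610 times in WT, a log2 difference of -0.48 ± 0.12. These group differences exceeded the spread between replicates. How often other pairs of genes differ this far was not tested. For psbL the ratio of means to psbE was close in all libraries, at 0.532 and 0.545 in dPPRrbcL and 0.525 and 0.517 in WT. Its log2 difference, 0.05 ± 0.03, was small but also without overlap, and was 0.37 ± 0.48 with medians. The psbL-psbJ spacer was covered about as deeply as psbE everywhere, at 0.995 and 1.02 times in dPPRrbcL, against 1.08 and 1.09 times in WT. For any such ratio, an exact permutation test (two-sided) of 2 against 2 libraries cannot go below a p of 0.333.

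The spacer between psbL and psbJ, taken as a whole, was therefore not a gap in the coverage. It had 3974 and 3609 reads per nucleotide in dPPRrbcL, against 69.2 and 76.7 in WT, more than psbL before it and psbJ after it in every library. Next to psbL it was thinner, with 2821 and 2406 at 63773 to 63797 in dPPRrbcL, against 31.2 and 28.6 in WT. The lowest positions of the spacer in WT had 18 and 16 reads. The whole spacer held 23.9% and 24.0% of the operon's coverage in dPPRrbcL, against 21.4% and 20.8% in WT, on 18.2% of its length. psbE, with 32.1% of the length, held 42.3% and 41.6% of the coverage in dPPRrbcL, against 35.1% and 33.4% in WT. psbF, with 15.3% of the length, held 10.8% and 11.4% in dPPRrbcL, against 18.6% and 22.4% in WT.

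Within each group the replicates had like profiles. Over the 785 positions of the operon, Pearson's r was 0.98 between the dPPRrbcL libraries and 0.82 between the WT libraries, and between a dPPRrbcL and a WT library it ran from 0.31 to 0.55. Neighbouring positions share reads, so these values only describe the curves. The lower depth of the WT libraries on the operon goes with the lower value there. Replicates held the same coverage at 0.722% of the 1385 positions in dPPRrbcL and at 4.84% in WT, so their values are not duplicates. That does not tell separate libraries from repeated sequencing of the same library.

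Coverage began at a similar place in both groups. Going upstream from psbE, coverage stayed at or above 10% of the psbE mean up to 114 nt before the start codon in both dPPRrbcL libraries, against 119 and 118 nt in WT. It stayed at or above 50% up to 91 and 94 nt in dPPRrbcL (64413 and 64416), against 43 and 91 nt in WT (64365 and 64413). The WT replicates did not share the 50% point, since coverage in replicate 1 climbed slowly through this stretch. The 30 nt that hold the 50% points of both dPPRrbcL libraries read as follows, with the base at 64414, the mean of these points rounded down, in capitals.
psbE 5′ edge (64400 to 64429): cttggtactttattgAcgatctcacaaaga

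The 5′ flank as a whole (64323 to 64622) had 1077 and 1047 reads per nucleotide in dPPRrbcL, against 12.6 and 16.4 in WT. Nearly all of this lay in the 125 nt next to psbE. From 76 to 100 nt before the start codon, the depth was 1995 and 2042 in dPPRrbcL, against 26.8 and 35.9 in WT. From 151 to 175 nt before it, the depth was 94.9 and 98.4 in dPPRrbcL, against 2.00 and 0 in WT. The flank relative to psbE was 0.270 and 0.295 in dPPRrbcL, against 0.196 and 0.234 in WT. The groups did not overlap in this mean ratio, which turns round when medians are used (log2 difference 0.40 with means and -0.57 with medians), because the median position of the flank lies in its thinly covered upstream part.

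Downstream of psbJ, coverage stayed at or above 50% of the psbJ mean up to 23 nt past the stop codon in dPPRrbcL replicate 2. In WT this point lay at 41 and 46 nt. In dPPRrbcL replicate 1, coverage fell under that level inside the gene, to 931 reads against a mean of 1867. The search began past the stop codon, so the 0 nt of this library is the lowest value possible and not a located edge. How often such edges differ for other genes was not tested. Coverage stayed at or above 25% of the psbJ mean up to 46 and 48 nt past the stop codon in dPPRrbcL, against 48 and 51 nt in WT. The 3′ flank (63238 to 63537) had 270 and 272 reads per nucleotide in dPPRrbcL, against 8.82 and 8.93 in WT. Beyond 100 nt a low plateau followed, with maxima of 225 and 233 reads at 63406 and 63407 in dPPRrbcL, against 10 reads at 63435 and 4 reads at 63238 in WT. psbJ and petA point toward each other, and the files do not separate strands, so reads of either transcript could lie there. Inside psbJ, coverage declined toward the 3′ end in dPPRrbcL. It was 2017 and 1681 reads per nucleotide in the bin that starts 700 nt from the first base of psbE and 1232 and 1153 in the bin that starts at 750 nt, the last one wholly inside the gene. WT had 42.4 and 36.2, then 38.0 and 50.9, in the same bins, and only its replicate 1 was lower in the second one.

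Along the region, the ratio of dPPRrbcL over WT was uneven. Of 55 bins of 25 nt, 38 had at least 10 reads per nucleotide in both WT libraries, and in all 38 dPPRrbcL lay above WT without overlap when scaled to the library total. The same held for 94.4% of the 2903 bins of the genome that passed this filter. All 38 were also above the median gene, by 0.50 to 2.94 on the log2 scale with a median of 1.62. Over the genome's bins that passed this filter the median was -0.64, so most of those bins lay below the median gene. The bins were filtered on WT coverage and the genes on the mean of the 4 libraries, so bins and median gene are not fully alike. The operon was picked for this contrast, so nothing is read from the count of 38. A first rise covered the 5′ leader and the start of psbE, where the first coding bin reached 6.38 on the log2 scale. The ratio was lowest within the first 3 genes in psbF, at 4.43 in the bin that starts at 300 nt. It was highest at 6.80 in the bin that starts at 500 nt, which covers the end of psbL and the first bases of the spacer.

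**Figure D4:**
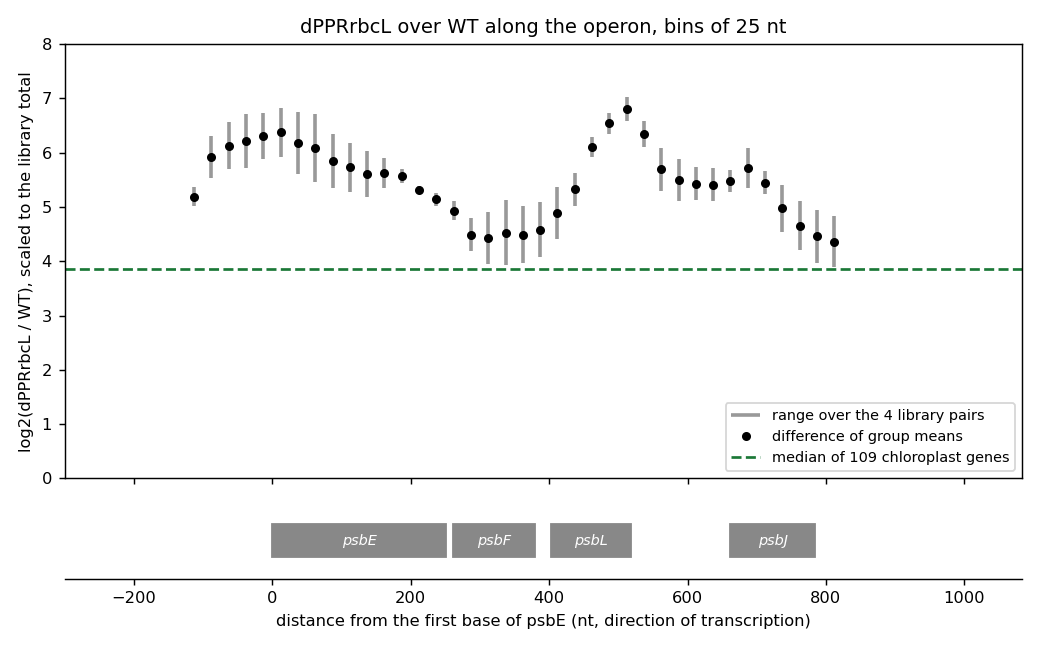
Log2 ratio of dPPRrbcL over WT, scaled to the library total, in bins of 25 nt with at least 10 reads per nucleotide in both WT libraries, with bars for the range over the 4 pairs of libraries. Points peak at 6.38 at the start of psbE and at 6.80 across the end of psbL and the first bases of the spacer. All lie above the dashed line, the median gene at 3.86.

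The peak at the end of psbL rests on a trough in WT. The bin that starts at 500 nt had 2529 and 2122 reads per nucleotide in dPPRrbcL, against 20.7 and 17.9 in WT, where the lowest position of psbL was 63818 in both libraries, with 18 and 17 reads. In dPPRrbcL the lowest positions of psbL lay elsewhere, at 63897 and 63893, with 1814 and 1740 reads. Of the genome's bins that passed the filter, 0.344% had an excess at or above that of the bin at 500 nt, itself counted among them. That bin was the highest of an operon picked for this contrast. A small share was thus built in, and nothing is read from it. At 300 nt, in psbF, dPPRrbcL was in a trough of its own, with 1896 and 1737 reads per nucleotide, against 67.1 and 90.9 in WT.

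The first 50% of each gene was also compared with its last 50%, in the direction of transcription. For psbE the ratio was 1.13 and 0.989 in dPPRrbcL, against 0.609 and 0.823 in WT, a log2 difference of 0.58 ± 0.34. For psbL it was 0.862 and 0.947 in dPPRrbcL, against 1.91 and 2.78 in WT, a log2 difference of -1.35 ± 0.40. Relative to WT, psbE was tilted toward its 5′ end in dPPRrbcL and psbL toward its 3′ end. For psbJ the ratio was 1.79 and 1.65 in dPPRrbcL, against 1.32 and 0.735 in WT. psbF overlapped between the groups, with 0.881 and 0.859 in dPPRrbcL and 0.981 and 0.705 in WT. Of 82 protein-coding genes with a mean of at least 10 reads per nucleotide and coverage in both of these parts in every library, 30.5% were higher in dPPRrbcL without overlap and 41.5% lower, so a tilt without overlap was common. Ranked by the signed difference, from most toward the 5′ end to most toward the 3′ end in dPPRrbcL relative to WT, psbJ was at 5, psbE at 12, psbF at 38 and psbL at 77 of 82, while rbcL was at 3.

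The neighbours of the operon were covered more thinly than its genes in dPPRrbcL, while in both WT libraries petA lay above psbL and psbJ and below psbE and psbF. petA, a cytochrome f gene that lies downstream on the plus strand (61657 to 62619), had 509 and 493 reads per nucleotide in dPPRrbcL, against 48.1 and 59.3 in WT. Without a pseudocount it lay 0.74 below the median gene on the log2 scale, and it fell by the median ratio (log2 change -0.65, limma adjusted p = 0.00418) while it rose when scaled to the library total (2.87, limma adjusted p = 5.36e-06). petL, a small subunit of the cytochrome b6f complex, lies upstream of psbE on the plus strand (65712 to 65807). It had 289 and 238 in dPPRrbcL, against 4.85 and 11.5 in WT, an excess of 1.17 over the median gene. The WT replicates of petL differed widely, and it passed the mean-coverage filter for genes only through its dPPRrbcL coverage. Its excess is therefore not read as a result. petG, the next gene of the same complex (65998 to 66111), had 290 and 251 in dPPRrbcL, against 14.6 and 11.1 in WT, an excess of 0.43.

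The other 11 chloroplast genes of photosystem II were counted in the same way. Scaled to the library total all 11 rose, as did 97.3% of all genes. By the median ratio, 2 of the 11 rose, beside 29.5% of all genes, 3 fell, beside 32.1%, and 6 did not pass the test, with a median log2 change of 0.04 beside 0.07 for all genes tested. Both risers, psbZ (0.70, limma adjusted p = 0.00973) and psbM, encode small subunits. psbM passed the filter of 10 reads per nucleotide only through its dPPRrbcL coverage, so its call is not read as a result. The genes that fell were psbB (-1.16, limma adjusted p = 0.000972) and psbC (-0.84, limma adjusted p = 0.0018), which encode the core antennae CP47 and CP43, and psbD (-0.91, limma adjusted p = 0.00457), which encodes the reaction centre protein D2. Scaled to the remaining coverage, 7 of the 11 rose, beside 69.6% of all genes, and 0 fell, beside 15.2%, also 0 at an unadjusted p under 0.05 in limma. Nothing particular to the 11 genes is read from these counts. Without a pseudocount, 5 of the 11 lay above the median gene. psbM, with 421 and 316 reads per nucleotide in dPPRrbcL and only 2.23 and 1.60 in WT, lay 3.62 above it, and psbB, with 5149 and 4822 in dPPRrbcL and 654 and 826 in WT, lay 1.21 below it.

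Over the 4 libraries, the genes outside the operon whose centred log2 values lay nearest to the mean of its 4 genes were psaI, rbcL, psbM and trnS (35312 to 35403), at Euclidean distances of 0.15, 0.16, 0.47 and 0.65. The median distance over 112 genes was 2.05. For psbM the distance rests on the pseudocount, since its WT coverage of 2.23 and 1.60 lay below the 10.4 to 12.9 reads added. Its log2 ratio was 4.70 with the pseudocount and 7.49 without it, against 4.53 to 5.75 for the operon genes without it. psbM also passed the filter only through its dPPRrbcL coverage, so its distance is not read as a likeness. psaI, which encodes a small subunit of photosystem I, had 1363 and 1224 reads per nucleotide in dPPRrbcL, against 21.1 and 23.6 in WT. Among the operon genes, psbJ lay nearest to their own mean, at 0.18, and psbF farthest, at 0.70. With only 4 libraries in 2 groups, this distance reflects little beyond the size of the dPPRrbcL over WT difference and the replicate offsets.

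The sense strand of the region was compared with the 5′ flank of rbcL (54808 to 54957, 150 nt), the flank of the study's named target. The longest exact match was 9 nt and lay in psbL at 63878 to 63886 and, in the rbcL flank, at 54867 to 54875. It is shown because it is the longest stretch that the operon shares with that flank.
psbL match: AATTAAATC
For comparison, 220 stretches of 1385 nt were taken from both strands of the genome, leaving out those that overlap the rbcL flank but not those over the operon. Of these, 85.9% held a match at least as long, with a median of 9 nt and a maximum of 14 nt. A match of this length was therefore common in the genome. Mismatched or shorter sites were not searched.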

How the data were processed

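Per the file headers, the authors deposited for each of the 4 libraries the read coverage (a signal, in reads per nucleotide) of every chloroplast position, as whole numbers with no recorded normalization. Per the labels, 50 ng of recovered RNA went into each NEBNext Ultra II library. The mapper, its settings, the build and the use of strand are not given in the sources used here. Positions 1 to 154478 match the TAIR10.1 chloroplast, whose annotation was used. Coverage is not a count of independent reads, so no counting interval or floor was computed. Precision is limited by having 2 libraries a group.

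The mean coverage of each gene was divided by the library mean, a pseudocount of 0.1% of that mean (10.4 to 12.9 reads per nucleotide) was added, and log2 was taken. Fold changes on this scale are understated for genes of low coverage. A pseudocount of 1%, used in earlier work on these data, exceeds the WT coverage of the operon genes. Genes averaging 10 or more reads per nucleotide were fitted with limma 3.58.1 in R 4.3.3 (Benjamini-Hochberg, 0.05), without covariates. On data simulated for this comparison over 112 genes, all 40 changed genes and 0 of 72 unchanged ones were called. The simulated noise was independent and had the same SD for every gene, and most genes were left unchanged. In the data, scaled to the library total, 97.3% of genes passed as higher. The simulation therefore checks the fit in that setting only and gives no error rate for these data. Everything else ran in Python 3.11.15 (pandas 2.3.3, numpy 2.4.6, matplotlib 3.10.9). SDs of log2 ratios combine the variances of both groups. Edges are the last position, going outward, at or above a percentage of the adjoining gene's mean. The search starts just outside the gene, so an edge cannot lie below 0 nt. The genes named are the 4 members, the other photosystem II genes, the operon's neighbours, rbcL and the 4 genes nearest in pattern. Members and lists were chosen with earlier results of these data known. The files hold only the chloroplast genome, so no cell type markers could be checked. The alternatives were other scalings, pseudocounts and filters, medians, an intensity trend, one copy of the inverted repeat left out, a replicate block, trimmed genes, shorter flanks, other edge thresholds and each library left out. The replicate block with the other scalings, the crossed pairing and the omission of the pseudocount were chosen after seeing the data.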

Additional observations from a re-analysis of the deposited data

How the results depend on the processing

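The operon was higher in dPPRrbcL under every alternative run. Its log2 change, 5.17, was 1.54 by the median ratio, 2.51 on the base of the remaining coverage (both unaltered by adding the replicate block) and 3.96 with a pseudocount of 1%. It was 5.17 with the replicate block alone and lay between 4.96 and 5.39 without each library in turn. Its excess over the median gene, 2.20, was 1.48 by the median ratio and 1.67 on the remaining coverage (the block altered neither), 1.59 with a pseudocount of 0.01%, 1.55 without one and 1.83 with median coverage, and ran from 2.15 to 2.26 without each library.

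The number of higher genes, 109, was 33 by the median ratio, 23 with the replicate block added, 105 with the block alone and 109 under crossed pairing. Without each library it ran from 105 to 109, the lone library of a group being assumed to vary like the others. The number of lower genes, 0 (limma, also 0 at an unadjusted p under 0.05), was 36 by the median ratio (33 with the block), 17 on the remaining coverage (16 with the block), 3 with the intensity trend, 1 under crossed pairing, and ran from 0 to 1 without each library, the 1 being without WT replicate 2. Deviations of same-numbered libraries had a correlation of -0.40 over 112 genes, and the numbers share only a label, so no pairing was used.

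Within libraries, the log2 difference of the psbL to psbE ratio, 0.047, was 0.37 with medians and 0.094 with 10 nt trimmed, and ran from 0.030 to 0.065 without each library. That of the 5′ flank to psbE, 0.40, turned to -0.57 with medians and ran from 0.27 to 0.53. That of the 3′ flank to psbJ, -0.39, was -0.18 with medians and -0.71 with a flank of 100 nt, and ran from -0.50 to -0.29. The psbF to psbE and psbJ to psbE differences ran from -1.34 to -1.01 and from -0.57 to -0.40. The mean 5′ edge at 50%, 92.5 nt in dPPRrbcL and 67.0 nt in WT, was 104 and 108 nt at 25% and 114 and 118.5 nt at 10%, and ran from 91 to 94 in dPPRrbcL and from 43 to 91 in WT. The mean 3′ edge at 50% was 11.5 nt in dPPRrbcL and 43.5 nt in WT. It was 47.0 and 49.5 nt at 25% and 80.0 and 75.5 nt at 10%. Without each library, the 50% edge ran from 0 to 23 in dPPRrbcL and from 41 to 46 in WT. The 0 nt of dPPRrbcL replicate 1 is the lowest value the search allows. The causes were not tested. The WT depth on the operon, at most 133 reads at a position, limits the WT profile.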
